A study of Bos taurus with 31 samples.

Results

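T cells, natural killer (NK) cells and B cells are the lymphocytes of the liver, where they lie among hepatocytes and the resident macrophages called Kupffer cells. Their presence in a tissue sample can be read from genes that few other cells use, such as those of the T cell receptor, the cytotoxic granules or the B cell receptor. The set described here held 41 gene symbols of such lymphocyte genes, given as a fixed list of names that was drawn up with earlier results of these data known. The count table held 24616 gene rows, and 40 of the 41 symbols were found in it. No row used here carries the symbol TNFRSF17, which was not analysed here. GZMB had 2 rows, ENSBTAG00000010057 and ENSBTAG00000039813, so that 41 rows were available. All 41 rows reached the minimum for testing, a sum of 20 reads over the cows, as did 15916 rows in all.

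The data were RNA-seq read counts of liver biopsies taken in week 16 of a feeding trial with lactating German Holstein cows. Cows received either a control ration (CON) or a ration with peas, wheat grain and straw that carried glyphosate (GLY) residues of a herbicide formulation. Within each, the concentrate feed proportion (CFP) was high (HC, 60%) or low (LC, 30%), which gave the groups CONHC (n = 8), CONLC (n = 8), GLYHC (n = 8) and GLYLC (n = 7). Each library came from 1 cow, and all cows had received the same ration in an adaptation period before the trial. The labels give no ages. The trial asked whether glyphosate residues affect the liver and whether this depends on the nutrient supply set by the concentrate.

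Levels are given as normalized reads, the count of a gene in a cow divided by the effective library size of that cow (library total times edgeR's TMM factor) and multiplied by the mean effective library size. Gene lengths were not used, so levels are compared between cows and not between genes. The gene counts summed to 11675775 in the shallowest and 36675542 in the deepest library. Their group medians were 1.56e+07 in CONHC, 2.25e+07 in CONLC, 2.17e+07 in GLYHC and 2.07e+07 in GLYLC. CONHC was thus the shallowest group by median, which lowers its counts where raw reads are given. The liver label was matched by ALB, the gene of albumin made by hepatocytes, with at least 892793 normalized reads in every cow. A pair of libraries stood apart in other cell types. GLYLC cow 912 held 4283 normalized reads of FABP2, a fatty acid binding protein of the intestinal epithelium, against at most 3.39 in any other cow. CONLC cow 103 had a sum of 44960 normalized reads over 6 stellate cell and fibroblast genes, mainly collagens, against at most 9518 in any other cow. Several results that rest on them are given with and without them. In bulk tissue, fewer cells of a type and less RNA per cell cannot be told apart.

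Calls are from the edgeR quasi-likelihood test, at p under 0.05 together with an adjusted p (Benjamini-Hochberg, over all 15916 genes) under 0.1. TNFRSF9 was the member called, in 1 of 7 contrasts, with more reads at high than at low concentrate over all cows. The T cell receptor, coreceptor, NK cell and B cell genes passed the test in no contrast. A single animal, GLYHC cow 117, had the highest level of 31 cows in 18 of the 41 rows. This cow also had the highest sum of the macrophage and Kupffer cell genes (32857 normalized reads). Its high levels were thus not limited to lymphocyte genes.

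TNFRSF9 (ENSBTAG00000003313), also called CD137 or 4-1BB, is a costimulatory receptor that appears on T and NK cells after activation and is also found on some activated myeloid and endothelial cells. It signals through TRAF adaptors to NF-kappaB. The study designed a pair of qRT-PCR primers for it, shown here in lower case since they are the deposited sequences that define which transcript was targeted for the member the results turn on. Both are written 5′ to 3′, and no base is set in capitals.
TNFRSF9 forward primer: caaatgagggttgtaaagactgct
TNFRSF9 reverse primer: tcactttccttcgtcccgtt
The forward primer has 24 bases and the reverse primer 20 bases. The qRT-PCR values were not used here.

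In CONHC, TNFRSF9 ranged from 5.49 to 40.8 normalized reads with a median of 18.7. In CONLC it ranged from 0.885 to 32.9 with a median of 4.55. In GLYHC it ranged from 6.42 to 68.9 with a median of 25.6, and in GLYLC from 1.52 to 11.5 with a median of 5.01. Both high concentrate medians thus lay above both low concentrate medians, while the ranges overlapped in the control and in the glyphosate cows. The highest cow was GLYHC cow 152, and the lowest was in CONLC. The depth was low, since 480 reads of TNFRSF9 were counted over all 31 cows, 1 to 46 per cow.

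Over all cows, with treatment as covariate, TNFRSF9 was higher at high concentrate by 1.58 (SE 0.43) on the log2 scale (edgeR adjusted p = 0.0900). It was 1 of 41 member rows called in this contrast, where 1.45% of all genes tested were called and 0.679% of all genes were called higher. Within the glyphosate cows the log2 difference was 2.32 (SE 0.61), with an unadjusted p of 0.000640 and an adjusted p of 0.115, so that it was not called by edgeR. DESeq2 called it there, with an adjusted p of 0.0381. Without GLYLC cow 912, the lowest of its group, the edgeR adjusted p in the glyphosate cows was 0.394. The unadjusted edgeR p was at most 0.00213 without any 1 cow of these groups. Within the control cows the difference was 0.94 (SE 0.56, unadjusted p = 0.104). The test of the difference between these contrasts, the interaction of GLY and CFP, gave 1.38 (SE 0.82, unadjusted p = 0.102), so that a larger effect in glyphosate cows was not shown. Between GLY and CON over all cows the log2 difference was -0.04 (SE 0.40).

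The call over all cows lay close to the threshold. It was kept in 12 of the 31 fits that each left out 1 cow and lost in 19, with adjusted p between 0.0207 (without CONLC cow 260) and 0.142 (without CONHC cow 133), while the log2 difference stayed between 1.44 and 1.94. Without both libraries that stood apart it was 1.44 (adjusted p = 0.173), and with the library total as covariate 1.45 (adjusted p = 0.166). DESeq2 on all cows gave 1.62 (adjusted p = 0.0181).

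**Figure D1:**
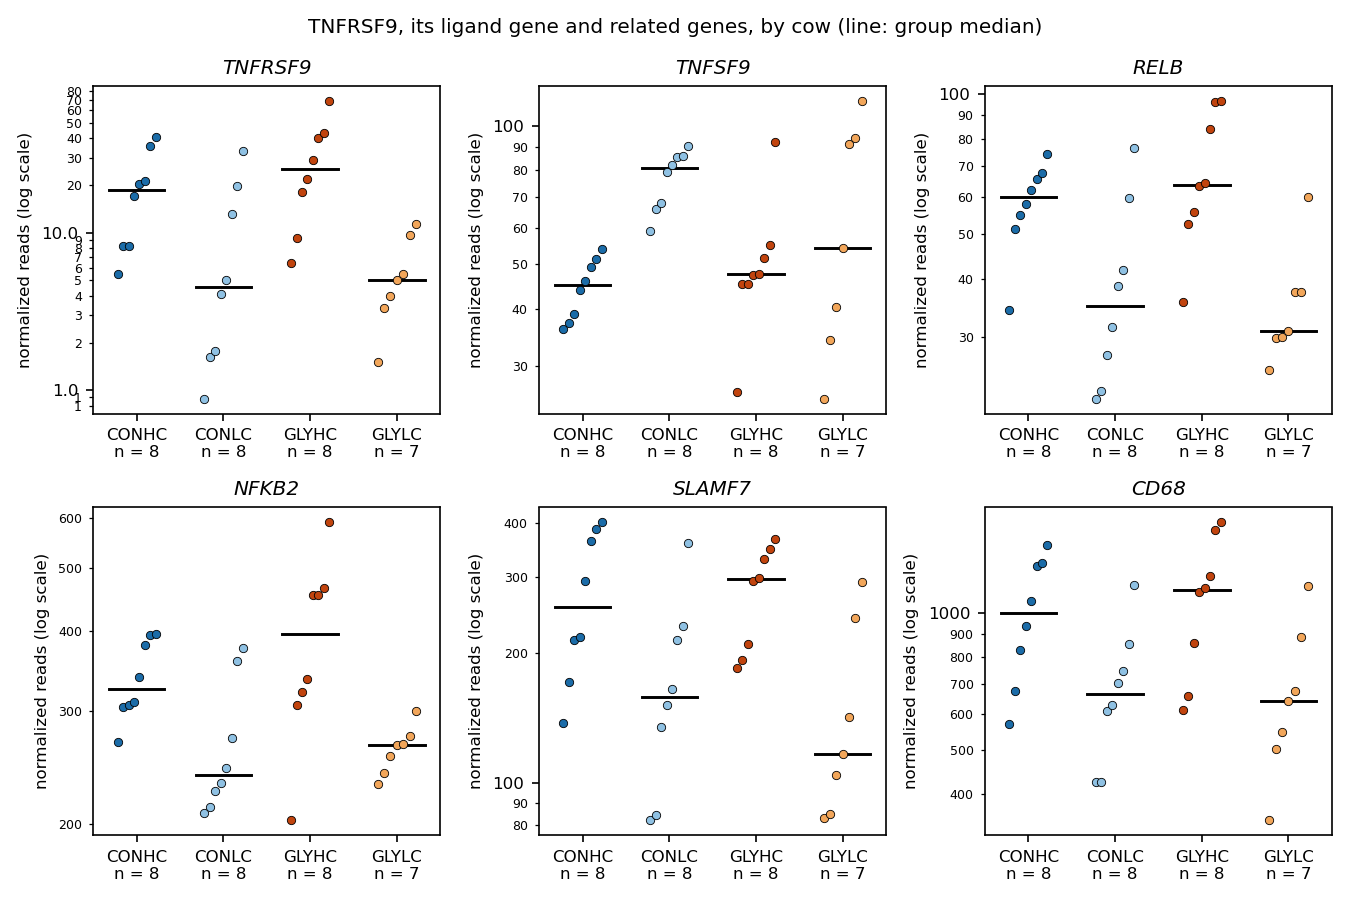
Normalized reads per cow (log axis) of TNFRSF9, its ligand gene TNFSF9, the NF-kappaB genes RELB and NFKB2, SLAMF7 and the macrophage gene CD68. Each point is 1 cow and each line a group median. TNFRSF9 medians are 18.7 and 25.6 in the high and 4.55 and 5.01 in the low concentrate groups, and the TNFSF9 points of CONHC all lie below those of CONLC.

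To set TNFRSF9 against the amount of T cell RNA, the log2 ratio of TNFRSF9 to CD3E was compared between groups, CD3E being a constant chain of the T cell receptor complex. In the glyphosate cows the ratio was -2.78 ± 0.69 (SD) in GLYHC and -4.28 ± 0.80 in GLYLC. This difference of 1.503 gave p = 0.00373 in a two-sided exact permutation test, 0.00746 after adjustment over 2 tests, and 4 of the 8 GLYHC cows lay above every GLYLC cow. In the control cows the ratio was -3.27 ± 1.002 in CONHC and -4.39 ± 1.16 in CONLC. Here the difference of 1.12 gave p = 0.0603 in the same exact test, and 1 CONHC cow lay above every CONLC cow. Leaving out each cow in turn, the difference in glyphosate cows stayed between 1.34 and 1.74 with p at most 0.00799 in the exact test. The TNFRSF9 counts are those of the comparisons above, so the ratio is another view of them and not a separate measurement. TNFRSF9 was chosen for the ratio with its difference in these cows already known. The adjustment over 2 tests does not cover that choice.

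The other genes of this receptor's pathway were taken from a fixed list of 8 TRAF adaptors and NF-kappaB partners. The list was drawn up with earlier results of these data known, so its shares are no independent test. In the contrast of high against low concentrate over all cows 2 of the 8 were called, both higher, and 5 had an unadjusted p under 0.05 and were higher, where 5.88% of all genes were. The called genes were RELB and NFKB2, which encode the 2 subunits of the noncanonical NF-kappaB dimer. RELB had medians of 60.2 normalized reads in CONHC, 35.1 in CONLC, 63.9 in GLYHC and 30.9 in GLYLC, and a log2 difference of 0.72 (SE 0.17, adjusted p = 0.0569). NFKB2 had medians of 324, 238, 395 and 265 in the same order and a log2 difference of 0.45 (SE 0.11, adjusted p = 0.0612). Both calls were kept in each of the 31 fits without 1 cow. With the library total as covariate both were lost, with adjusted p of 0.134 for RELB and 0.122 for NFKB2. Without both libraries that stood apart RELB stayed called (adjusted p = 0.0686) and NFKB2 did not (adjusted p = 0.124).

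The ligand of TNFRSF9 is encoded by TNFSF9, and its levels ran the other way, most clearly in the control cows. All 8 CONHC cows, with 36.1 to 53.9 normalized reads, lay below all 8 CONLC cows, with 59.0 to 90.6. It was the 1 gene of all 15916 (0.00628%) that was lower in CONHC without overlap. Among so many genes a single such separation can arise by chance. TNFSF9 was also on a list drawn up with earlier results of these data known. The log2 difference was -0.79 (SE 0.24, unadjusted p = 0.00228), and the adjusted p of 0.471 did not pass. In GLYHC, TNFSF9 ranged from 26.3 to 92.2 and in GLYLC from 25.5 to 113, so that the glyphosate groups overlapped. When 1 cow was left out, the log2 difference between them lay between -0.52 and -0.15, with edgeR adjusted p of at least 0.367. Over all cows the difference was -0.58 (SE 0.17, edgeR adjusted p = 0.112, DESeq2 adjusted p = 0.0536). Of the 10 ligand genes tested, 1 was higher at an unadjusted p under 0.05, TNFSF13B, which encodes the B cell survival factor BAFF, at 0.81 (SE 0.38, adjusted p = 0.333), and TNFSF9 was the 1 that was lower, where 7.81% of all genes were.

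Of the macrophage markers, 1 passed the test in the same contrast. CD68, a lysosomal glycoprotein of macrophages, was called higher at high concentrate over all cows by 0.61 (SE 0.17, edgeR adjusted p = 0.0948), and was not called without both libraries that stood apart (0.54, adjusted p = 0.181). The call of CD68 was kept in 9 of the 31 fits without 1 cow and lost in 22. Of the 10 macrophage and Kupffer cell genes, 6 were higher and 1 was lower at an unadjusted p under 0.05, where 5.88% and 7.81% of all genes were. These genes too were chosen with earlier results of these data known. Their summed level ranged from 13819 to 30542 normalized reads in CONHC, 15147 to 26056 in CONLC, 15236 to 32857 in GLYHC and 15673 to 26491 in GLYLC. The part of macrophages in the TNFRSF9, RELB and NFKB2 results was not tested.

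Of the other costimulatory and inhibitory receptors, CD28, the classical costimulatory receptor of T cells, had medians of 9.99 normalized reads in CONHC, 13.8 in CONLC, 19.2 in GLYHC and 12.2 in GLYLC. Its ranges were 5.49 to 32.5, 6.19 to 22.9, 10.4 to 49.0 and 4.29 to 27.5, which overlapped throughout. The log2 difference of GLYHC against CONHC was 0.89 (SE 0.38, unadjusted p = 0.0246) and did not pass adjustment (adjusted p = 1). CTLA4, the inhibitory counterpart of CD28, had 24 reads in all, 14 of them in GLYHC and 10 of those in cow 117, against 1 read in CONHC. Its fitted log2 difference of 2.83 (SE 1.13, unadjusted p = 0.0175) between these groups rests on that cow and on the prior count of the fit and is no bound. Without cow 117 it fell under the 20-read minimum and was not tested. ICOS had 79 reads in all. CD27 and TNFRSF4 (OX40), receptors of the same family as TNFRSF9, had log2 differences of 0.29 and 0.19 between high and low concentrate over all cows and were not called.

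**Figure D2:**
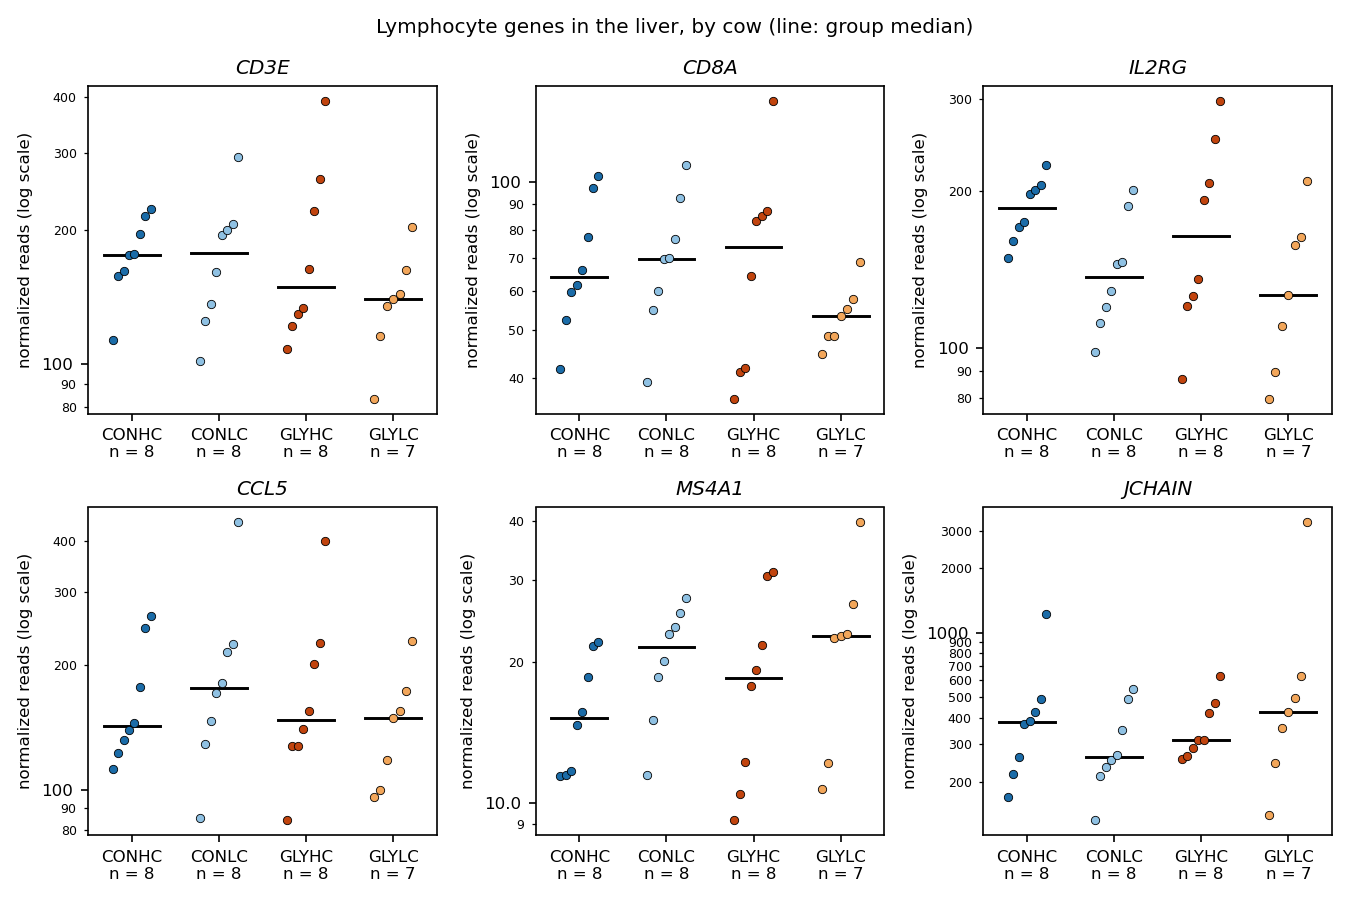
Normalized reads per cow (log axis) of CD3E, CD8A, the receptor gene IL2RG, the chemokine gene CCL5, the B cell gene MS4A1 and the plasma cell gene JCHAIN. Each point is 1 cow and each line a group median. The 4 groups overlap in every panel, and 1 GLYLC cow (912) with 3279 reads stands apart for JCHAIN.

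The T cell receptor complex was represented by CD3D, CD3E, CD3G and CD247, and its first signalling steps by the kinases LCK and ZAP70 and the adaptor LAT. CD3E (ENSBTAG00000015710) had 113 to 224 normalized reads in CONHC (median 176), 102 to 294 in CONLC (median 178), 108 to 392 in GLYHC (median 149) and 83.4 to 204 in GLYLC (median 140). LCK had 52.5 to 110 (median 78.4), 47.5 to 124 (median 80.0), 43.0 to 168 (median 66.3) and 40.6 to 93.5 (median 69.8) in the same order. Neither gene separated any pair of groups. The highest CD3E level was 4.70 times the lowest over the 31 cows.

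Within the control cows none of the 4 receptor and 3 signalling genes had an unadjusted p under 0.05, and their median log2 differences between CONHC and CONLC were -0.04 and -0.01. Within the glyphosate cows the medians were 0.37 and 0.29, again with no p under 0.05. CD3E had a difference of 0.43 (SE 0.24, adjusted p = 0.469) and LCK of 0.29 (SE 0.23, adjusted p = 0.658) there. Between GLYLC and CONLC, CD3E differed by -0.34 (SE 0.24, adjusted p = 0.966).

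Among the coreceptors and surface molecules, CD4 marks helper T cells, and CD8A and CD8B form the coreceptor of cytotoxic T cells. CD4 had medians of 27.4, 29.3, 24.1 and 20.8 normalized reads in CONHC, CONLC, GLYHC and GLYLC, with extremes of 9.83 in CONLC and 65.4 in GLYHC. CD8A had medians of 64.1, 69.8, 73.8 and 53.4, with extremes of 36.4 and 146, both in GLYHC. The groups overlapped for both genes. CD8B had 11.3 to 107 normalized reads in GLYHC (median 15.4) and 10.7 to 27.1 in GLYLC (median 14.2), and 12.4 to 35.2 in CONHC and 9.83 to 57.9 in CONLC. Although the GLYHC and GLYLC medians of CD8B were close, the fitted log2 difference was 0.99 (SE 0.44, unadjusted p = 0.0314, adjusted p = 0.347). Without GLYHC cow 117 it was 0.42 (unadjusted p = 0.272). CD5, a modulator of T cell receptor signals, had medians of 36.4 in GLYHC and 18.8 in GLYLC and a log2 difference of 0.68 (SE 0.33, unadjusted p = 0.0434, adjusted p = 0.382). CD5 ranged from 20.8 to 84.7 and from 13.9 to 57.7 in these groups, which overlapped. Its log2 difference was 0.47 without GLYHC cow 117, its highest cow. The unadjusted edgeR p was up to 0.150 when 1 cow of these groups was left out. Without GLYLC cow 912 the edgeR adjusted p of CD5 was 0.608. CD2, CD6 and CD7, further surface molecules of T cells, had no unadjusted p under 0.05.

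**Figure D3:**
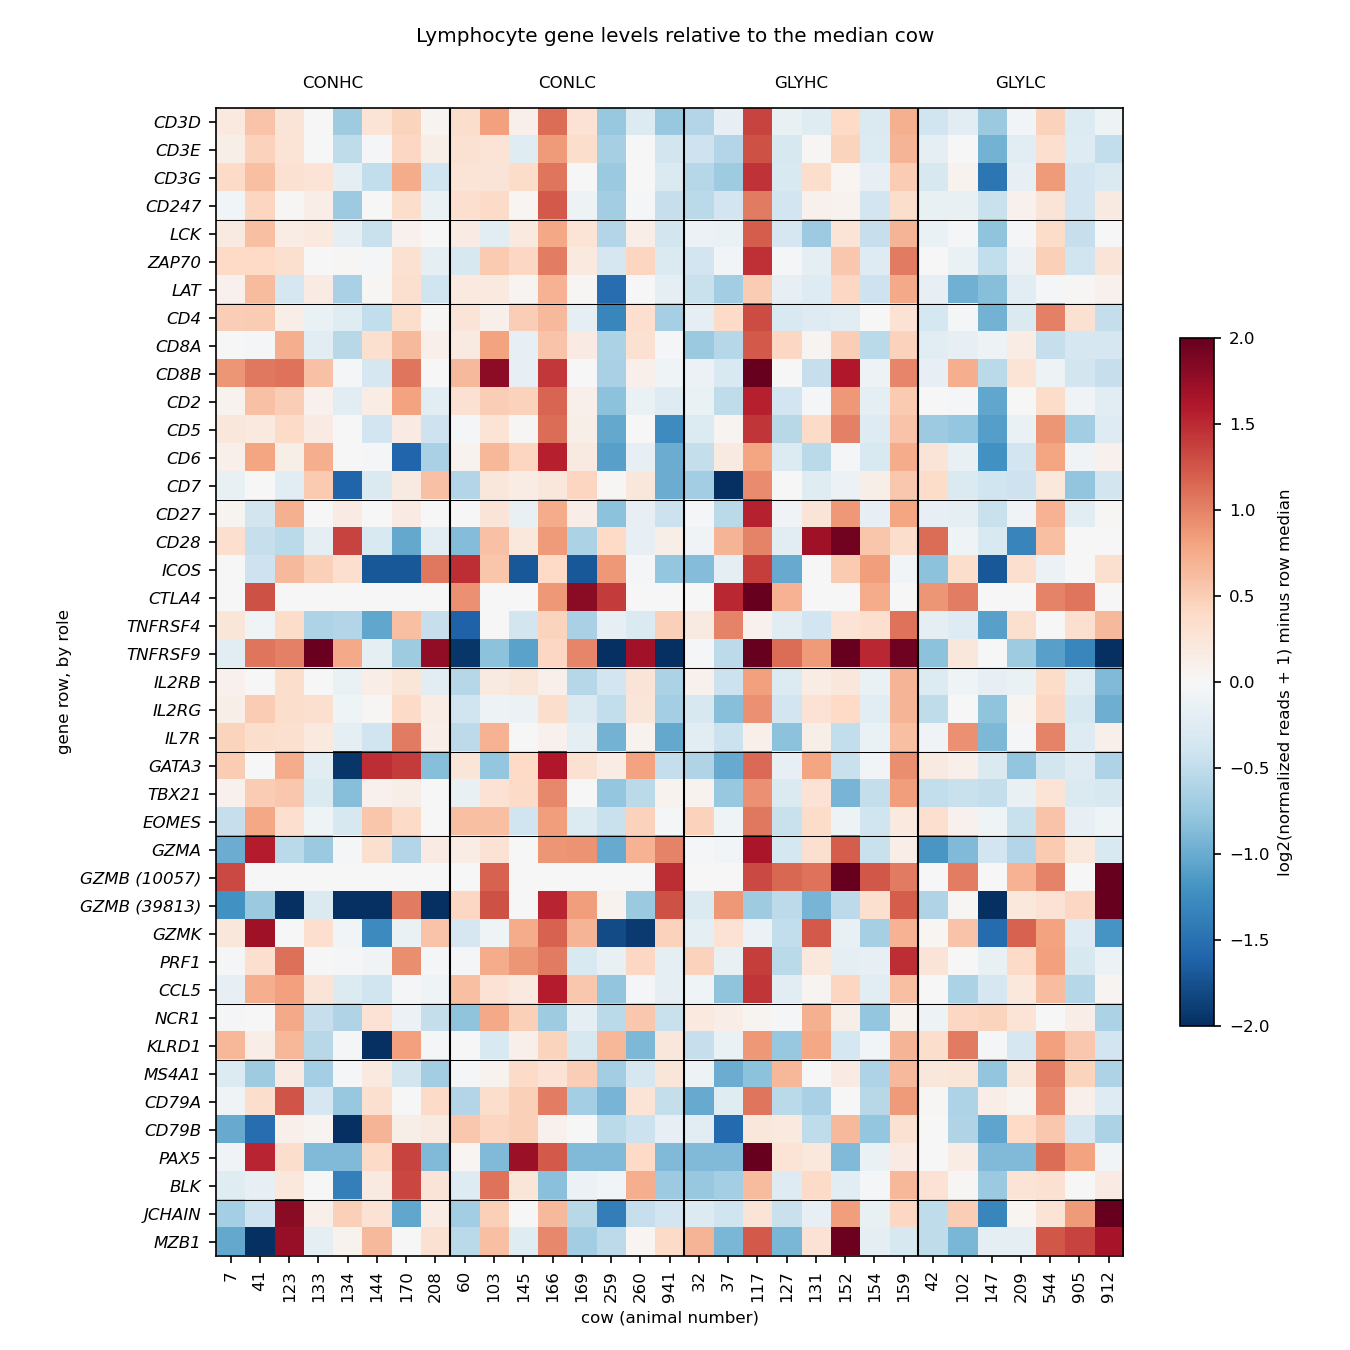
Levels of the 41 member rows in the 31 cows as log2 of normalized reads plus 1, minus the median of the row, with colours cut at -2 and 2. Columns are cows by group, rows are ordered by role and separated by lines, and the GZMB rows carry the last digits of their identifiers. Cow 117 of GLYHC is the reddest column of the T cell rows, where it is the highest of all cows in 11 of 14.

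GLYHC cow 117 and CONLC cow 166 held most of the highest T cell levels. Among the 14 rows of the receptor complex, its signalling genes, coreceptors and surface molecules, 11 had their highest level in GLYHC cow 117 and 2 in CONLC cow 166. Over all 41 member rows, 31 had a log2 difference above 0 for GLYHC against GLYLC, with a median of 0.31, where 48.6% of all genes lay above 0 and their median was -0.01. Without cow 117, 23 of 40 rows tested lay above 0 and the median was 0.07. For CONHC against CONLC, 14 of 41 rows lay above 0 (46.1% of all genes) with a median of -0.02, and without cow 166 this was 32 of 41 with a median of 0.13. For GLYHC against CONHC, 31 of 41 lay above 0 (51.5% of all genes), and 14 of 40 without cow 117. For GLYLC against CONLC, 11 of 41 lay above 0 (49.4% of all genes), and between 8 and 16 without any 1 cow. For high against low concentrate over all cows, 32 of 41 lay above 0 (46% of all genes), and 24 of 40 without cow 117. For the interaction 34 of 41 lay above 0 (51.7% of all genes), and between 30 and 35 without any 1 cow. The median interaction was 0.36, and it was 0.19 without cow 117 and 0.17 without cow 166. GLYHC and CONLC both enter the interaction with a positive sign, and cows 117 and 166 were not left out together. Leaving out 1 cow therefore cannot show how far this count rests on both. For GLY against CON over all cows 14 of 41 lay above 0 (51.5% of all genes), and between 10 and 19 without any 1 cow. With the library total as covariate, 24 of 41 lay above 0 for high against low concentrate, with a median of 0.04 against 0.12 without it. CONHC against CONLC then had 8 of 41, GLYHC against GLYLC 30 and GLYHC against CONHC 36. GLYLC against CONLC had 16, the interaction 34 and GLY against CON 20. These contrasts share groups, so their counts are not independent of each other. Rows can also vary together between cows, so the rows of a contrast are not separate observations.

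Unadjusted p values under 0.05 were counted for the members and for all genes. For GLYHC against GLYLC, 4 of 41 rows had one, against 12.5% of all genes. This count was 11 of 41 without GLYLC cow 544, where 2190 of all 15876 genes tested had one, and 1 of 40 without GLYLC cow 912, where 1318 of 15752 had one. For high against low concentrate over all cows it was also 4 of 41, against 13.7%. For CONHC against CONLC it was 1 of 41, against 5.96%. For GLYHC against CONHC it was 2 of 41 (2.92% of all genes), for GLYLC against CONLC 2 of 41 (5.65%), for the interaction 3 of 41 (4.21%) and for GLY against CON over all cows 1 of 41 (3.92%). edgeR called 0 members in 6 of the 7 contrasts. DESeq2 on all cows also called 0 in 5 of these 6, and called TNFRSF9 in GLYHC against GLYLC. Of all genes, edgeR called 0% for CONHC against CONLC, GLYHC against CONHC, the interaction and GLY against CON, 0.201% for GLYHC against GLYLC and 0.0628% for GLYLC against CONLC. The shares of all genes that DESeq2 called are not given here.

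No member row separated the groups of a pairwise contrast without overlap. CONHC with GLYLC and GLYHC with CONLC were not compared. Over all genes this was so, for higher and lower levels, in 0.0126% and 0.00628% for CONHC against CONLC, 0.0251% and 0.0691% for GLYHC against GLYLC, 0% and 0.00628% for GLYHC against CONHC and 0.00628% and 0% for GLYLC against CONLC.

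**Figure D4:**
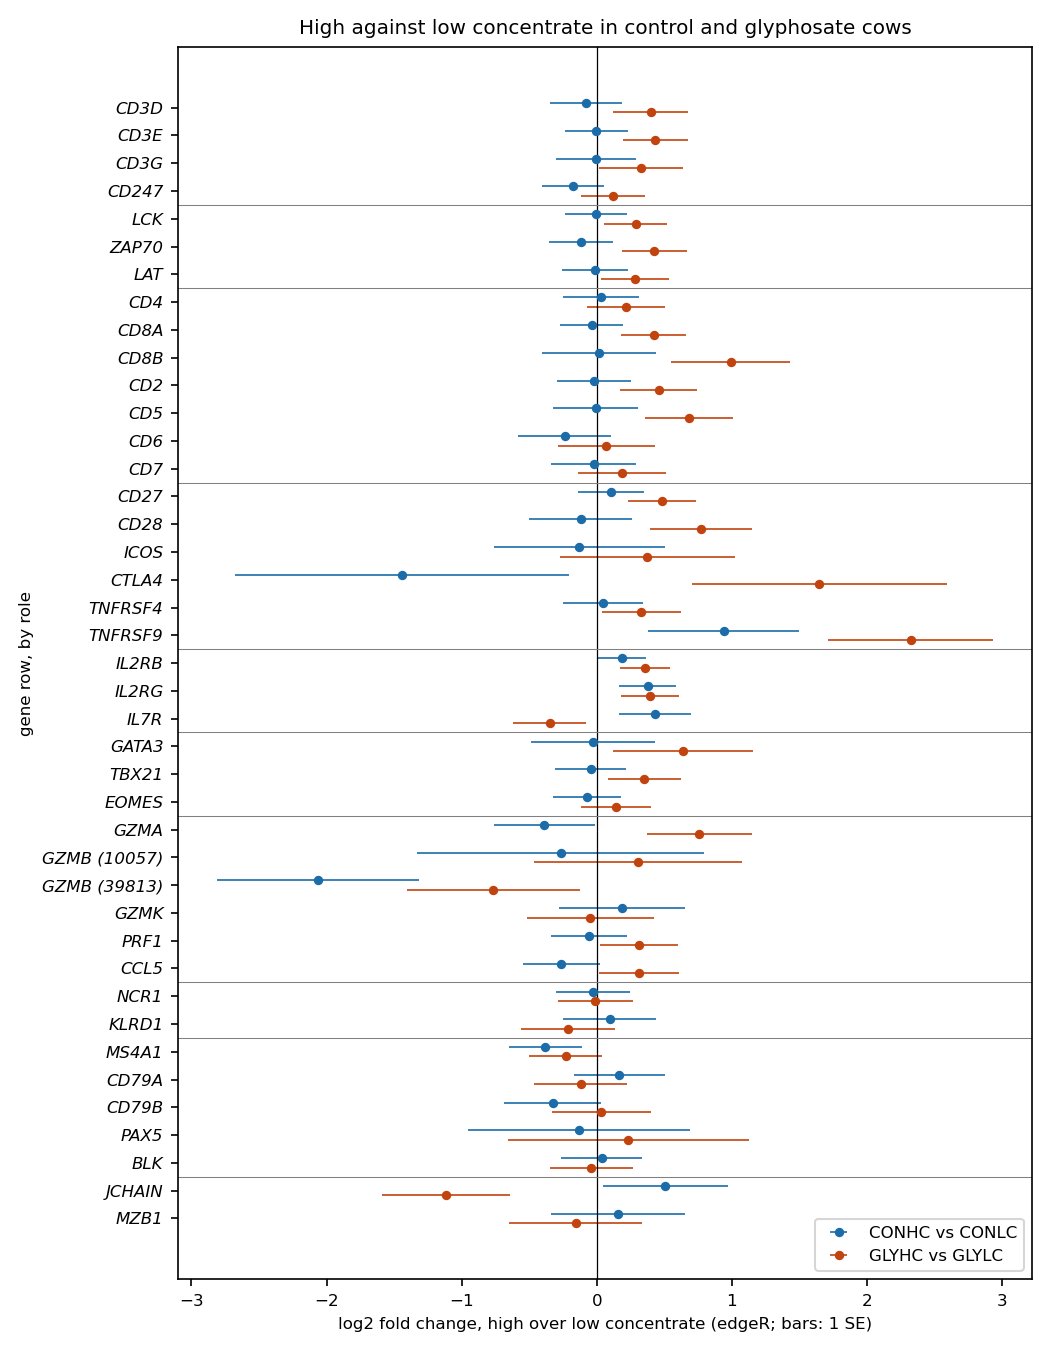
Log2 difference of high over low concentrate for each member row, with bars of 1 SE from the edgeR fit, in control cows (blue) and glyphosate cows (red). TNFRSF9 lies at 0.94 and 2.32, the T cell receptor complex has medians of -0.04 and 0.37, and JCHAIN lies at 0.51 and -1.12, the last resting on GLYLC cow 912. Without CONHC cow 123 the JCHAIN value in control cows is 0.09.

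The cytokine receptors IL2RB and IL2RG are chains of the interleukin-2 and interleukin-15 receptors, IL2RG being shared by several more, and IL7R serves the survival of resting T cells. IL2RG had 149 to 224 normalized reads in CONHC (median 186), 98.2 to 200 in CONLC (median 136), 87.1 to 297 in GLYHC (median 164) and 79.8 to 209 in GLYLC (median 126). The medians of the high concentrate groups lay above those of the low ones, with overlapping ranges. Over all cows the log2 difference was 0.39 (SE 0.15, unadjusted p = 0.0141, adjusted p = 0.227), with 0.38 in control and 0.40 in glyphosate cows. IL2RB had medians of 128, 114, 135 and 110 normalized reads and ranges of 106 to 158, 79.6 to 149, 91.7 to 220 and 66.9 to 160 in the same order, which overlapped. Its difference was 0.27 (SE 0.13, unadjusted p = 0.0400, adjusted p = 0.331). GLYLC cow 912 had the lowest level of all cows for both IL2RG and IL2RB. Without it the edgeR adjusted p over all cows was 0.343 for IL2RG and 0.479 for IL2RB. IL7R had medians of 46.5, 36.1, 34.3 and 38.0, with ranges of 29.0 to 80.6, 18.6 to 62.9, 21.4 to 59.0 and 20.3 to 77.6, and an interaction of -0.78 (SE 0.38, unadjusted p = 0.0475, adjusted p = 0.999).

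Among the transcription factors that set T and NK cell lineages, GATA3 had 109 reads in all and 0 to 10.6 normalized reads per cow, with medians of 3.66, 3.64, 2.58 and 2.14 in CONHC, CONLC, GLYHC and GLYLC. Its log2 difference of GLYLC against CONLC was -0.96 (SE 0.51, unadjusted p = 0.0675). TBX21 and EOMES, the T-box factors of type 1 and cytotoxic lymphocytes, differed by 0.15 and 0.03 between high and low concentrate over all cows.

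The cytotoxic effectors included the granzymes GZMA, GZMB and GZMK and the pore-forming perforin PRF1. GZMA had 6.70 to 44.2 normalized reads in CONHC (median 11.7), 6.55 to 29.2 in CONLC (median 20.6), 10.2 to 46.1 in GLYHC (median 14.9) and 5.84 to 20.9 in GLYLC (median 10.7). It differed by -0.81 (SE 0.39, unadjusted p = 0.0459, adjusted p = 0.868) between GLYLC and CONLC, and its interaction was 1.15 (SE 0.54, unadjusted p = 0.0416, adjusted p = 0.999). Reads that fit more than 1 of the granzyme genes were not counted, so the levels of the GZMB rows are uncertain. GZMB ENSBTAG00000039813 had 8 reads in the 8 CONHC cows, 4 of which had 0, and 47 reads in the 8 CONLC cows, all of which had at least 2. Its normalized reads were 0 to 7.33 and 1.43 to 10.6 in these groups, 1.13 to 8.43 in GLYHC and 0 to 24.3 in GLYLC, with the highest value in cow 912. The log2 difference of CONHC against CONLC was -2.06 (SE 0.75, unadjusted p = 0.00975, adjusted p = 0.686), and over all cows that of high against low concentrate was -1.31 (SE 0.49, unadjusted p = 0.0120, adjusted p = 0.212). Without cow 912 the latter was -0.83 (unadjusted p = 0.0895). GZMB ENSBTAG00000010057 had 21 reads in all and 18 cows at 0, with 16 reads in the glyphosate and 5 in the control cows. It differed between GLY and CON over all cows by 1.25 (SE 0.61, unadjusted p = 0.0483, adjusted p = 1). GZMK and PRF1 had no unadjusted p under 0.05.

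CCL5, a chemokine made by cytotoxic lymphocytes that attracts further T cells, had 112 to 263 normalized reads in CONHC (median 142), 85.2 to 443 in CONLC (median 176), 84.3 to 400 in GLYHC (median 147) and 95.9 to 229 in GLYLC (median 149). High and low concentrate differed by 0.01 (SE 0.21) over all cows. NCR1, the receptor NKp46 that marks NK cells in cattle, had medians of 9.42, 7.89, 10.7 and 11.1 normalized reads and extremes of 5.31 and 17.6. The difference of NCR1 was -0.02 (SE 0.19) for high against low concentrate and 0.11 (SE 0.19) for GLY against CON over all cows. KLRD1 (CD94), a lectin-like receptor of NK cells, differed by -0.06 and 0.18 in these contrasts.

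The B cell genes were MS4A1 (CD20), the B cell receptor chains CD79A and CD79B, the transcription factor PAX5 and the kinase BLK. MS4A1 had 11.4 to 22.1 normalized reads in CONHC (median 15.1), 11.5 to 27.4 in CONLC (median 21.6), 9.17 to 31.2 in GLYHC (median 18.5) and 10.7 to 39.8 in GLYLC (median 22.7). Its medians were lower at high concentrate in both diets, but the difference of -0.30 (SE 0.19, adjusted p = 0.502) over all cows did not pass the test. None of the 5 B cell genes had an unadjusted p under 0.05 in any contrast, and PAX5 had 38 reads in all.

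Antibody-secreting plasma cells were represented by JCHAIN, the joining chain of dimeric IgA and pentameric IgM, and by MZB1, a chaperone of antibody assembly. JCHAIN (ENSBTAG00000018531) had 170 to 1219 normalized reads in CONHC (median 381), 133 to 546 in CONLC (median 261), 257 to 626 in GLYHC (median 315) and 140 to 3279 in GLYLC (median 424). The highest value, in GLYLC cow 912, was 9.39 times the median of all cows. JCHAIN differed by 1.35 (SE 0.48, unadjusted p = 0.00782, adjusted p = 0.595) between GLYLC and CONLC, by -1.12 (SE 0.47, unadjusted p = 0.0249) between GLYHC and GLYLC and by -1.63 (SE 0.66, unadjusted p = 0.0200) in the interaction.

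Without cow 912 the same JCHAIN differences were 0.30 (unadjusted p = 0.411), -0.06 (unadjusted p = 0.872) and -0.56 (unadjusted p = 0.255). The difference of high against low concentrate over all cows changed from -0.29 to 0.24. Cow 912 also held the highest levels of intestinal genes, with 974 normalized reads of BCO1, 521 of MUC13 and 239 of OLFM4, against at most 2.99 for any of these in another cow. XBP1, a transcription factor of plasma cells that also serves secretory epithelial cells, had 16654 normalized reads in this cow against group medians between 2336 and 3230. MZB1 had 47.9 in cow 912, the highest of GLYLC (group median 12.9) but below the 59.9 of GLYHC cow 152. The part of the intestinal RNA in the JCHAIN level was not tested.

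Over the cows, 2 of 6 pairs of member genes had an adjusted permutation p under 0.05 after removal of the group means, both with CD3E. The pair of CD3E and TNFRSF9 lay between this limit and the adjusted p of 0.1 used for calls. Pearson's r over the 31 cows was 0.82 for CD3E and CCL5 (permutation p = 1e-05, the smallest that 100000 permutations can give, adjusted over 6 pairs 6e-05, Spearman's rho 0.74) and 0.71 for CD3E and CD8A (permutation p = 9e-05, adjusted 0.000270, rho 0.62 with permutation p = 0.000770). Without the cows farthest from the median, CONLC 166 and GLYHC 117, r was 0.72 and 0.59. CD3E and TNFRSF9 had r = 0.41 (permutation p = 0.0380, adjusted 0.0760) and rho = 0.43 (permutation p = 0.0283, adjusted 0.0567), and r = 0.35 without these cows.

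CD3E and the NK gene NCR1 had r = 0.06 (permutation p = 0.775, adjusted 0.775) and rho = 0.04 (permutation p = 0.832). CD3E and the B cell gene MS4A1 had r = 0.29 (permutation p = 0.166, adjusted 0.249) and rho = 0.29 (permutation p = 0.146), and r = 0.52 (permutation p = 0.00971) without cows 166 and 117, so that this relation rests on which cows enter. MS4A1 and JCHAIN had r = 0.17 (permutation p = 0.429, adjusted 0.515) and rho = 0.35 (permutation p = 0.0636). Pearson's r was 0.49 without GLYLC cow 912, and -0.0073 without GLYHC cow 37 and GLYLC cow 147, the cows farthest from the median of MS4A1, where rho was 0.19. Both genes of a pair came from the same library and share its depth, and the low counts of NCR1 and MS4A1 limit their values.

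**Figure D5:**
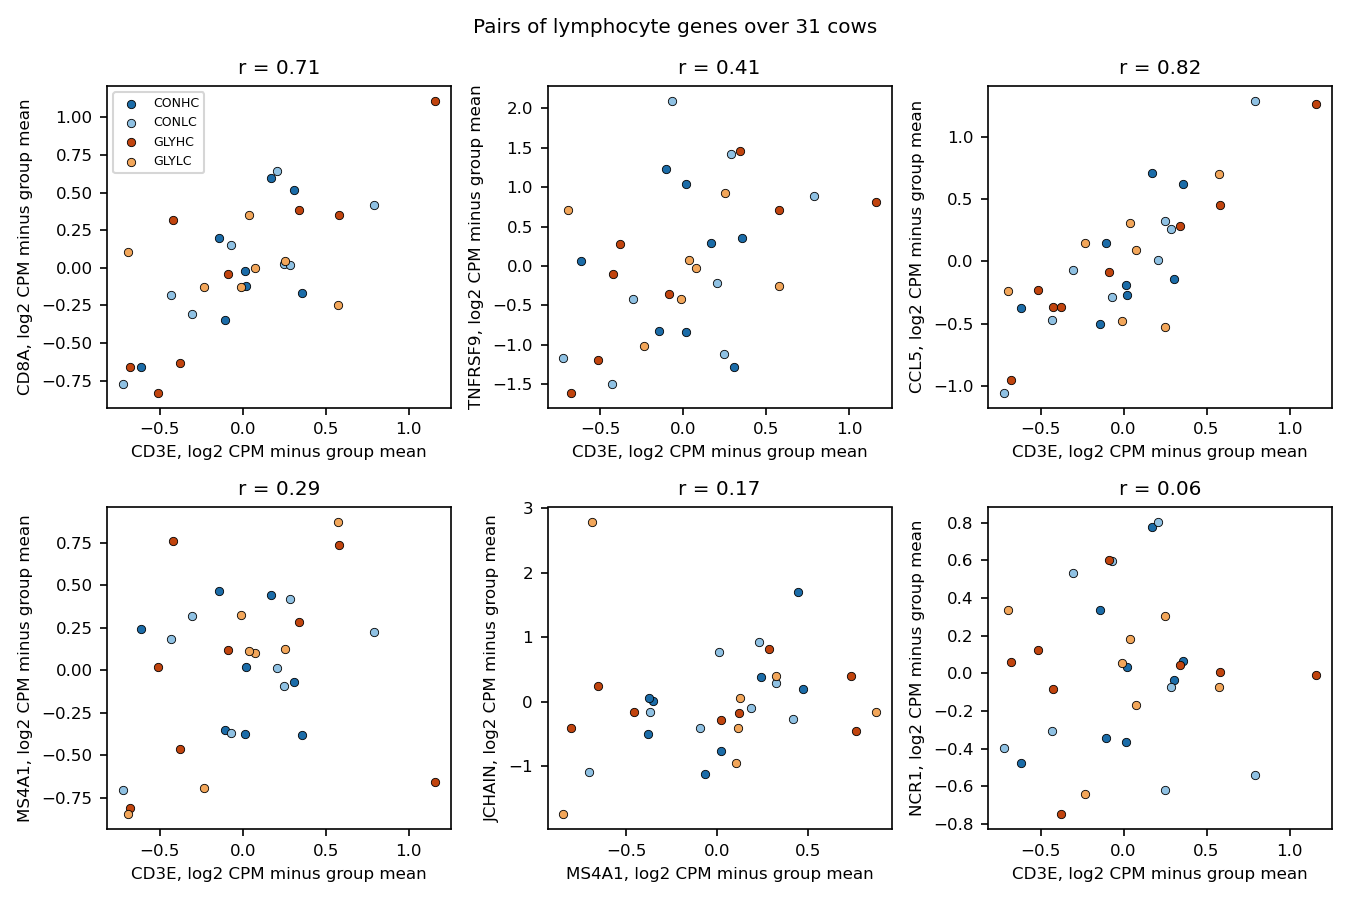
Log2 CPM (counts scaled to library size) minus the group mean for 6 pairs of member genes in the 31 cows, each point 1 cow coloured by group, with Pearson's r above each panel. CD3E rises with CCL5 (r = 0.82) and CD8A (r = 0.71), while CD3E and NCR1 show no relation (r = 0.06).

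The wider set of related lymphocyte genes comprised 6 fixed lists with 74 rows tested, drawn up with earlier results of these data known. In high against low concentrate over all cows 3 were called, all higher (0.679% of all genes were called higher). Besides RELB and NFKB2 this was SLAMF7, a surface receptor of NK cells, plasma cells and other activated leukocytes, with medians of 256 normalized reads in CONHC, 159 in CONLC, 297 in GLYHC and 117 in GLYLC. The log2 difference of SLAMF7 was 0.74 (SE 0.21, adjusted p = 0.0948), called in 9 of the 31 fits without 1 cow and not called without both libraries that stood apart (0.68, adjusted p = 0.196). Of the 15 other cytotoxic and NK genes tested, 1 was called (1.45% of all genes) and 14 lay above 0 (46% of all genes), with a median of 0.19 against -0.01 over all genes. The highest sum of this list was that of GLYHC cow 117, with 1255 normalized reads against 1014 in the next cow. How far the count of 14 rests on cow 117 was not tested.

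None of the 18 other T cell receptor signalling genes had an unadjusted p under 0.05 in this contrast. PTPRC (CD45), the phosphatase of all leukocytes, differed by 0.18 (SE 0.13, adjusted p = 0.575), and the adaptor LCP2 by 0.18 (SE 0.13, adjusted p = 0.578). Among the 10 checkpoint and regulatory T cell genes the smallest edgeR adjusted p was that of HAVCR2 (TIM-3), at -0.15 (SE 0.07, adjusted p = 0.336), followed by TNFRSF18 (GITR) at 0.78 (SE 0.56, adjusted p = 0.581). Of the 13 other B and plasma cell genes 2 were higher at an unadjusted p under 0.05 (5.88% of all genes) and did not pass adjustment. They were CD38, an ectoenzyme of activated lymphocytes and plasma cells, at 0.48 (SE 0.16, adjusted p = 0.164), and the complement receptor CR2 at 0.57 (SE 0.22, adjusted p = 0.228).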

How the data were processed

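Liver biopsies of 31 cows were measured by RNA-seq. Per the labels and the study's methods, the authors prepared libraries with a stranded mRNA kit, used FastQC and Trim Galore, aligned with HISAT2 2.1.0 (genome UMD3.1) and, with HTSeq 0.8.0, counted reads that mapped to 1 place. The authors deposited these raw counts, which were used here. Whether counting used strand is not given in the sources used here, so reads of overlapping antisense genes may be included. A deposited table of normalized values was not used. No coordinates are given, since the reference at hand is of another build.

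Groups came from the sample labels. In R 4.3.3, edgeR 4.0.16 (TMM, glmQLFit, glmQLFTest) was fitted to all genes with at least 20 reads over all cows, with 4 groups for the pairwise and interaction contrasts and with treatment and concentrate as terms for the contrasts over all cows. SE is the log2 difference divided by the square root of F. The procedure was tested on simulated data. Log2 CPM (counts scaled to library size) for ratios and pairs used a prior count of 2. Depth was 11675775 to 36675542 reads per cow, and cows of a group differed by more than sampling noise (chi-square per degree of freedom at least 24.5 in 105 pairs). Each group holds different cows, so p-values measure the spread between animals.

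The members, related genes and markers were chosen with earlier results of these data known. All members are accounted for by role. Values per group are given for members called, members with an unadjusted p under 0.05 in any contrast and 1 or 2 anchor genes per role, and related genes are named where called and otherwise as the 2 with the smallest p per list. 1 item that this rule names is not reported here. Alternatives were RLE and upper-quartile scaling, other count filters, a robust fit, DESeq2 1.42.0, fits of the compared groups alone, a stricter adjusted p of 0.05, the library total as covariate and leaving out each cow. Leaving out both libraries that stood apart was added after seeing the data.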

Additional observations from a re-analysis of the deposited data

Results flagged for a closer look

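In each group of 7 or 8 cows, the gap between the highest or lowest cow and its neighbour was divided by the range of log2 CPM, and values above Dixon's limit were noted. Chance flags about 1 in 20 groups, and 12 of the 164 combinations of member row and group were noted here. High cows were GLYHC cow 117 for CD4 (0.58, with 65.4 normalized reads), PAX5 (0.693, 5 reads) and CTLA4 (0.695, 10 reads), and GLYLC cow 544 for CD27 (0.595, 72.6 normalized reads). High values from 1 or 2 reads with every other cow of the group at 0 were those of CONHC cow 41 for CTLA4 (1) and CONHC cow 7 for GZMB ENSBTAG00000010057 (1). Low cows were CONHC cow 134 for CD3D (0.553, 37.2 normalized reads) and CD7 (0.591, 5 reads), CONHC cow 144 for KLRD1 (0.575, 1 read), CONLC cow 259 for LAT (0.595, 8 reads), and GLYLC cow 147 for BLK (0.698, 14 reads) and CD2 (0.575, 17 reads). Of these 12, 3 were levels of cow 117, which was the highest of all cows in 18 of the 41 member rows.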

How the results depend on the processing

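No paired analysis was possible because each group holds different cows and no replicate number is shared between groups. The count of members called for GLYHC against GLYLC was 1 in place of 0 with DESeq2 on all cows and with DESeq2 on the compared groups only, and 0 to 1 when 1 cow was left out. Without the share of all genes that DESeq2 called, its count of 1 cannot be set against all genes. For high against low concentrate over all cows it was 0 in place of 1 at an adjusted p under 0.05, with no filter on low counts, with the library total as covariate and without GLYLC cow 912 and CONLC cow 103, and 0 to 1 when 1 cow was left out. In each case the gene was TNFRSF9, and the cause was not tested. In the other 5 contrasts the count was 0 under every alternative run. The log2 difference of TNFRSF9 to CD3E in control cows was 1.42 with a prior count of 0.5 (exact permutation p = 0.0471) and 0.93 to 1.43 without 1 cow. Pearson's r was 0.44 for CD3E and TNFRSF9 with group means kept, and without the farthest cows 0.52 for CD3E and MS4A1 and -0.0073 for MS4A1 and JCHAIN, where the sign turned. Low counts limit CTLA4, ICOS, PAX5, GATA3 and GZMB.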
